A study of Mus musculus with 18 samples.

Results

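The comparison set 3 arrays of F66;Dysf-/- quadriceps against 3 arrays of F66 quadriceps, 6 of the 18 arrays of the series, and asked what loss of dysferlin changed in muscle that overexpressed follistatin. The 6 arrays were taken by genotype as labelled, and all 20259 genes that the table measured under 1 symbol were compared. F66 mice carry follistatin (Fst) behind a skeletal muscle myosin light chain promoter and enhancer, on the Y chromosome, so every mouse of both groups was male and transgenic. F66;Dysf-/- mice lack dysferlin in addition. F66;Dysf-/- and F66;Dysf+/+ males came from matings of F66;Dysf+/- males with Dysf+/- females, although the array labels of the control group say only F66. Neither group was injected. All mice were 10 weeks old on a C57BL/6 background. The lesion in the Dysf allele is not given in the sources used here. The 4 other groups of 3 arrays were wt and Dysf-/- males of the same age, uninjected or ACVR2B/Fc-injected. The injected mice received 4 injections of 10 mg/kg of a soluble activin type IIB receptor from 6 weeks of age. These 12 arrays serve below to set the same genotype difference beside the transgenic one or to show a level, and they also enter the estimate of the spread and the choice of a row for each gene.

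Dysferlin is a large membrane protein of the muscle fibre that takes part in resealing a torn surface membrane, together with annexins, caveolin and calpains. Its loss causes limb girdle muscular dystrophy and Miyoshi myopathy, in which fibres die, macrophages enter the muscle and satellite cells, the resident stem cells, rebuild fibres. Follistatin binds and blocks myostatin and activins, ligands of the TGF-β family that limit muscle mass, and muscle that overexpresses it is enlarged.

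The values were log2 intensities on exon arrays, on which a difference of 1 is a 2-fold change. Array medians over all rows lay between 5.3256 and 5.3335 in F66 and between 5.2668 and 5.3051 in F66;Dysf-/-. No pair of arrays held identical values. Correlations between arrays over all rows were between 0.9679 and 0.9809 within the 2 groups and between 0.958 and 0.9638 across them. Skeletal muscle genes read far above the array medians on all 6 arrays, among them the fast myosin gene Myh1 (lowest array 13.22), the actin gene Acta1 (12.23), the ryanodine receptor gene Ryr1 (12.13), troponin T gene Tnnt3 (12.33), desmin (Des, 11.51), creatine kinase (Ckm, 11.20) and myoglobin (Mb, 10.93). The replicates are described as biological. With 3 arrays against 3, an exact two-sided permutation test of a single gene cannot go below p = 0.1, so each gene was tested with limma, fitted over all genes and all 18 arrays. The table holds no call of signal above background. Among the called genes named below, Bub1, Cd22, Dcstamp, Fcgr4, Hgf, Il1rn, Mmp12, Mmp13, Mx1, Sirpb1c, Tlr1 and Top2a read below the array medians on all F66 arrays, Opn1mw on all F66;Dysf-/- arrays and Ly6g on the arrays of both groups, and the sizes of their differences are not exact. With values below an array's median raised to it, the differences of Bub1 and Mx1 were -0.02 and 0.09, without a test. Those of Dcstamp, Fcgr4, Cd22 and Top2a were 0.31, 0.85, 0.88 and 0.94. Those of Hgf, Tlr1, Sirpb1c and Il1rn were 1.06, 1.28, 1.39 and 1.56, and that of Opn1mw was -1.78.

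Loss of dysferlin in F66 muscle changed a large share of the genes measured. Of 20259 genes, 2930 were called higher in F66;Dysf-/- (14.5%) and 4104 lower (20.3%), 7034 in all (34.7%), at an adjusted p below 0.05. With the arrays of the 2 groups alone 7043 genes were called, 6265 of them among the 7034 and in the same direction. The increases were the larger changes: 332 called genes rose by more than 1 on the log2 scale and 107 fell by more than 1, and 55 rose by more than 2 against 4 that fell by more than 2. The median difference over all genes was -0.077. The balance of directions depended on the scaling. Of the genes called, 41.7% were higher as deposited, 43.5% after a further quantile normalization and 54.9% once each array was centred on its own median. In 51.0% of all genes the 3 arrays of 1 group lay wholly above the 3 of the other (19.3% higher and 31.7% lower in F66;Dysf-/-). The 20 largest increases and the 20 largest decreases named below were taken only from such genes, so their separation is no result. Counts of list members below are to be read against these shares, and the median log2 difference of a list stands in brackets after its counts. In bulk muscle, more or fewer cells of a type and more or less RNA per cell cannot be told apart.

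Dysferlin itself was the reference point for the labels. Dysf read 8.90, 8.91 and 8.74 in F66 and 6.76, 6.79 and 6.92 in F66;Dysf-/-. The groups did not overlap, and the level was 4.08-fold lower in F66;Dysf-/- (log2 difference -2.03, SE 0.0689, adjusted p 9.81e-11). The remaining signal still lay above the array medians. Of the 5 measured genes on either side of Dysf on chromosome 6, Paip2b (-0.59, adjusted p 8.42e-05) and Tex261 (-0.26, adjusted p 0.00179) fell and the other 8 did not pass the test. Tex261 fell by a similar amount in Dysf-/- against wt (-0.30, adjusted p 0.0231). Fst, the product of the transgene that both groups carried, read 6.33, 5.92 and 6.04 in F66 and 6.38, 6.12 and 6.24 in F66;Dysf-/-. These values overlapped, and Fst did not pass the test (0.15, SE 0.129, adjusted p 0.391). They also lay not far above the array medians. How well this row reads the transcript of the transgene was not tested, so equal expression of the transgene is not shown.

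Among 36 measured ferlin and membrane repair genes, 10 rose and 8 fell (median -0.05). Myof encodes myoferlin, the closest relative of dysferlin in muscle, which takes part in myoblast fusion. It read 7.47, 7.27 and 7.17 in F66 and 8.73, 8.53 and 8.65 in F66;Dysf-/-, and it was 2.53-fold higher (1.34, SE 0.0851, adjusted p 1.24e-08). The annexins, proteins that bind phospholipid in the presence of calcium, moved in the same direction, with Anxa5 at 8.82, 8.85 and 8.67 in F66 and 10.00, 9.78 and 9.74 in F66;Dysf-/- (1.06, SE 0.117, adjusted p 4.18e-06). Anxa1 (0.97), Anxa2 (0.91), Anxa4 (0.77), Anxa7 (0.37) and Anxa6 (0.24) also rose, and for each of these annexins all F66;Dysf-/- arrays stood above all F66 arrays. Anxa8 fell (-0.54). S100a10, the partner of annexin A2, did not pass the test (-0.22, adjusted p 0.183), and S100a4 fell (-0.37, adjusted p 0.00896). Capn3, the muscle calpain, read 7.48, 7.61 and 7.50 in F66 and 6.85, 6.37 and 6.87 in F66;Dysf-/-. Its groups did not overlap and it was 1.78-fold lower (-0.84, SE 0.181, adjusted p 0.00209).

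**Figure D1:**
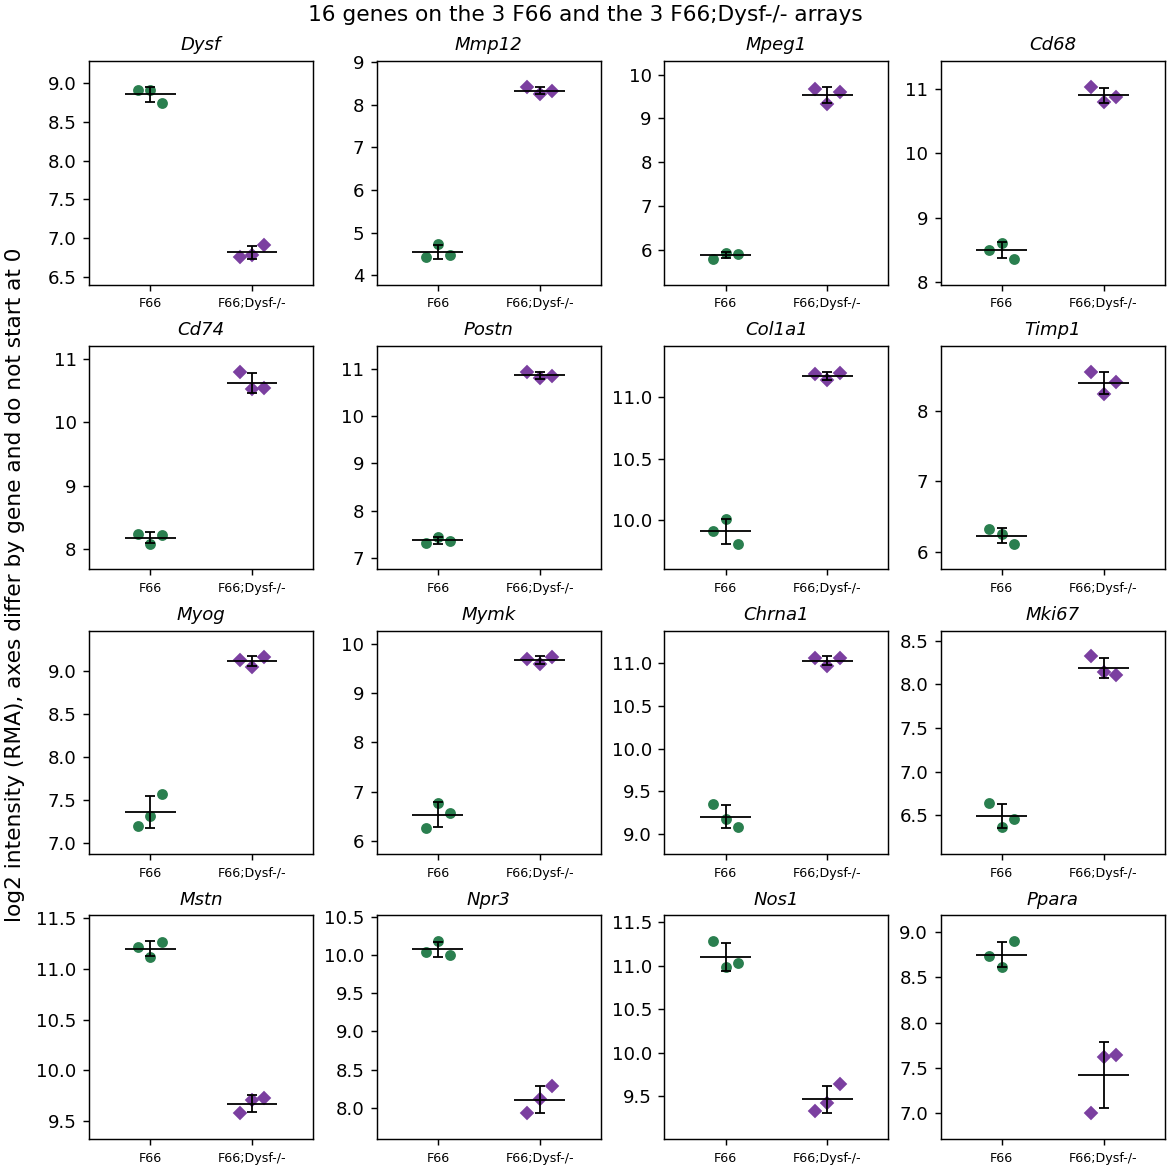
Log2 intensity (RMA) of 16 genes on each of the 3 F66 arrays (circles) and the 3 F66;Dysf-/- arrays (diamonds); the line is the mean and the bar the SD of 3. In every panel the groups are apart, and Mmp12, at most 4.73 in F66, is at 8.25 or more in F66;Dysf-/-. Groups were apart in 51.0% of all genes too.

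Macrophage genes were among the largest increases. Of 30 measured macrophage and monocyte markers, 28 rose and 2 fell, with a median log2 difference of 1.78 beside -0.077 over all genes. The mean level of the list was 6.53 to 6.70 on the F66 arrays and 8.26 to 8.41 on the F66;Dysf-/- arrays. Mmp12, the macrophage elastase, read 4.43, 4.73 and 4.49 in F66 and 8.42, 8.25 and 8.33 in F66;Dysf-/- (3.79, SE 0.14, adjusted p 1.14e-10). Every F66 value lay below the array medians, and every F66;Dysf-/- value well above them. With the F66 values raised to the medians of their arrays the Mmp12 difference was 3.00, with no test. Mpeg1, which encodes the pore-forming perforin-2 of macrophages, read 5.80, 5.94 and 5.90 in F66 and 9.68, 9.33 and 9.60 in F66;Dysf-/- (12.6-fold, 3.66, SE 0.155, adjusted p 3.28e-10). Gpnmb, a glycoprotein of lipid-laden macrophages, read 7.32, 7.19 and 7.24 in F66 and 10.66, 10.41 and 10.53 in F66;Dysf-/- (9.73-fold). Cd68, a lysosomal membrane protein by which macrophages are stained, read 8.50, 8.61 and 8.36 in F66 and 11.03, 10.79 and 10.87 in F66;Dysf-/- (5.31-fold, 2.41, SE 0.211, adjusted p 3.7e-07). None of these 4 genes overlapped between groups, which was a condition of being named among the largest increases. Trem2, the lipid receptor of phagocytes, rose by 2.23 and Spi1, which encodes the transcription factor PU.1 of the myeloid lineage, by 1.38. Adgre1 (F4/80) rose by 2.32, Ptprc (CD45) by 2.32, Itgb2 by 2.39 and Csf1r by 1.27. The 2 members that fell, Cd163 and Lyve1, mark macrophages resident in the tissue. Cd163 read 7.96, 7.76 and 7.57 in F66 and 6.89, 7.03 and 7.08 in F66;Dysf-/- (-0.76, SE 0.107, adjusted p 4.74e-05) and Lyve1 8.14, 8.11 and 7.90 in F66 and 7.15, 7.20 and 6.91 in F66;Dysf-/- (-0.96, SE 0.203, adjusted p 0.00169). Neither overlapped between groups.

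PU.1 binds DNA at sites with the core GAGGAA, and that core was searched on both strands in the 250 bases before each transcription start that RefSeq lists (GRCm38.p6). It was in 13 of 25 promoters of the macrophage list (52%, 21 genes matched), beside 23.3% of 32851 promoters of all genes, 26% of promoters of genes called higher and 19.7% of those of genes called lower. A match is a description of the letters and not a bound site. The promoters of 4 list members with a match and large increases, for a start of each that holds it, are shown so that the core can be read in its place. Genes with a promoter on 1 of the chromosomes were left out before the 4 largest increases were taken. Capitals mark GAGGAA or its reverse complement, and each sequence ends 1 base before the start.
Mmp12, chr9:7344147-7344396, plus strand: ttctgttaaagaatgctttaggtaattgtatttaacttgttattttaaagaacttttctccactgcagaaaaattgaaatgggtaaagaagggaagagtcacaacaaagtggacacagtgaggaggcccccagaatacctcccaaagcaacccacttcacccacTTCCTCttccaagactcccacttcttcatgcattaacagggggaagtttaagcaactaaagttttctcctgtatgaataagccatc
Cd68, chr11:69666171-69666420, minus strand: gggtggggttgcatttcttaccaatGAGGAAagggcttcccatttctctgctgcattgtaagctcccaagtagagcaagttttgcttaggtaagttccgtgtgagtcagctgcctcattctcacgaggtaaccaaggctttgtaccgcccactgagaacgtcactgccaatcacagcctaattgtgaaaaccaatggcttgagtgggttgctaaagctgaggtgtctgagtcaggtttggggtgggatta
Clec7a, chr6:129472780-129473029, minus strand: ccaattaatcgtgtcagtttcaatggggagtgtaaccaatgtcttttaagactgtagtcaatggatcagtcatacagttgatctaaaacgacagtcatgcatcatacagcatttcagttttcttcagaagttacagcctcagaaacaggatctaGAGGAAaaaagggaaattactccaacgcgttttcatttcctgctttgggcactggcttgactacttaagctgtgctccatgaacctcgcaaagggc
Ctss, chr3:95526536-95526785, plus strand: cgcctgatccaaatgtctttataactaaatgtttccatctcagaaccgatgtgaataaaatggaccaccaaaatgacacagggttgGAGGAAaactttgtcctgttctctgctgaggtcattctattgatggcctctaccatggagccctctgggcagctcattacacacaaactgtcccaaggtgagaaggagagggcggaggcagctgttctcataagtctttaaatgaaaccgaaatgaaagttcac
Counted from the start, the match began at position -86 in Mmp12, on the opposite strand, at -225 in Cd68, at -96 in Clec7a and at -164 in Ctss. Clec7a, the β-glucan receptor dectin-1, read 5.39, 5.33 and 5.19 in F66 and 7.72, 7.61 and 7.62 in F66;Dysf-/- (2.34, SE 0.0902, adjusted p 1.3e-10). Ctss, the cathepsin that trims antigen in phagocytes, read 7.08, 7.21 and 7.08 in F66 and 9.54, 9.42 and 9.40 in F66;Dysf-/- (2.33, SE 0.0921, adjusted p 1.32e-10). The groups were apart for both genes.

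Genes of phagocyte function rose. Of 25 measured genes for Fc receptors and phagocytosis, 22 rose and 0 fell (median 1.13). Cybb, the catalytic subunit of the phagocyte oxidase, read 6.53, 6.42 and 6.37 in F66 and 9.34, 9.06 and 9.11 in F66;Dysf-/- (6.63-fold, 2.73, SE 0.139, adjusted p 1.33e-09), with no overlap. Its partners Cyba (1.23) and Rac2 (1.66) rose too. The Fc receptors Fcgr1, Fcgr3 and Fcgr4 rose by 1.27, 1.24 and 1.45, and Sirpa by 1.59. Cd36 (-0.26, adjusted p 0.169), which muscle fibres and endothelium also express, was 1 of 3 that did not pass. Of 34 lysosomal genes, 26 rose and 2 fell (median 0.57). Atp6v0d2, part of the proton pump that acidifies lysosomes, rose by 2.33, the cathepsin genes Ctsz by 1.51 and Ctsh by 1.43, acid lipase (Lipa) by 1.44 and the saposin precursor Psap by 0.88. The cholesterol transporter gene Npc1 (-0.68) and Tfeb (-0.29), a regulator of lysosomal genes, fell. Of 15 complement genes, 13 rose and 0 fell (median 0.85), led by C3ar1, the receptor for the C3a fragment, at 7.40, 7.33 and 7.30 in F66 and 10.37, 10.23 and 10.22 in F66;Dysf-/- (7.62-fold, 2.93, SE 0.137, adjusted p 6.77e-10). The C1q chains C1qb, C1qc and C1qa rose by 1.59, 1.27 and 0.85, and factor B (Cfb) by 1.47.

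Signalling genes of inflammation rose in part. Of 29 chemokine and chemokine receptor genes, 19 rose and 3 fell (median 0.64). Cxcl16 read 5.87, 6.28 and 6.12 in F66 and 9.01, 8.88 and 8.85 in F66;Dysf-/- (7.08-fold, 2.82, SE 0.154, adjusted p 2.26e-09). Ccl3 read 5.33, 5.0 and 5.3 in F66 and 7.64, 7.54 and 7.79 in F66;Dysf-/- (5.43-fold), with a gap of more than 2 between the groups. The F66 values of Ccl3 lay near or below the array medians, so this size is not exact. The monocyte attractants Ccl2 and Ccl8 rose by 2.11 and 1.99, Ccr2, the receptor of Ccl2, by 1.63, Ccl9 by 1.75 and the interferon-γ target Cxcl9 by 1.73. The eosinophil attractant Ccl11 fell (-0.83). Of 37 interleukin and TNF family genes, 21 rose and 4 fell (median 0.47). Il7r, the receptor for interleukin 7, read 5.50, 5.22 and 5.20 in F66 and 9.13, 8.60 and 8.76 in F66;Dysf-/- (11.5-fold, 3.52, SE 0.158, adjusted p 5.34e-10). On the second and the third F66 arrays Il7r lay below the array medians, so this size is not exact. The receptor antagonist Il1rn rose by 1.94, whereas Il1b did not pass (0.22, adjusted p 0.218). Tnf rose by 0.68 and its receptor Tnfrsf1b by 1.42. Of 25 genes for Toll-like receptors and the inflammasome, 20 rose and 1 fell (median 0.49). The receptors of nucleic acids in endosomes Tlr13 (2.34), Tlr8 (2.02), Tlr7 (1.29), Tlr9 (1.23) and Tlr3 (0.29) rose, as did Tlr1 (1.78) and Tlr2 (0.49) of the cell surface.

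Interferon response genes rose in 22 of 27, among them Oas2 (1.35), Oasl2 (1.28), Ifit3 (1.13) and Mx1 (0.92), and none fell. The Mx1 difference was 0.09 once values below the array medians were raised to them, with no test. Ifit2 (0.12, adjusted p 0.36) was 1 of 5 that did not pass. Of 9 measured genes of MHC class II presentation, 4 rose, the invariant chain gene Cd74 at 8.24, 8.09 and 8.22 in F66 and 10.80, 10.52 and 10.55 in F66;Dysf-/- (5.42-fold, 2.44, SE 0.123, adjusted p 1.25e-09), H2-Ab1 (2.30), H2-Aa (2.15) and H2-DMa (0.90). The costimulatory gene Cd40 did not pass (0.20, adjusted p 0.107). Markers of other leukocytes moved little beside those of macrophages. Of 23 lymphocyte markers, 5 rose and 1 fell, and the list mean was 5.41 to 5.44 in F66 and 5.47 to 5.54 in F66;Dysf-/-. Cd3e (0.22, adjusted p 0.0595) and Cd3g (0.19, adjusted p 0.179), chains of the T cell receptor complex, did not pass, and Cd22 had the largest rise on the list (1.14). Of 21 neutrophil, mast cell and eosinophil markers, 2 rose and 4 fell, among the latter the neutrophil marker Ly6g (-0.32), and the list mean was 5.19 to 5.23 in F66 and 5.12 to 5.25 in F66;Dysf-/-. Both means were close to the array medians. With any 1 array left out, 3 to 5 lymphocyte markers were called higher and 1 to 4 markers of neutrophils, mast cells and eosinophils lower. The part of macrophage number in the differences of the other lists was not tested.

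Genes of the extracellular matrix formed the next group of increases. Postn, periostin, a matrix protein of healing tissue, had the largest increase among the matrix glycoproteins. It read 7.31, 7.45 and 7.36 in F66 and 10.94, 10.80 and 10.85 in F66;Dysf-/-, 11.2-fold higher (3.49, SE 0.125, adjusted p 9.81e-11), and the groups were more than 3 units apart. Of 39 matrix glycoproteins, proteoglycans and crosslinking enzymes, 28 rose and 2 fell (median 0.50). Mfap4, a protein of elastic fibres, read 6.44, 6.44 and 6.73 in F66 and 8.23, 7.98 and 8.16 in F66;Dysf-/- (3.02-fold, 1.59, SE 0.119, adjusted p 7.04e-08). Thrombospondin 4 (Thbs4) rose by 1.48, the crosslinking oxidase Loxl1 by 1.27 and fibronectin (Fn1) by 0.96, while transglutaminase 2 (Tgm2) fell (-0.42). Of 24 collagen genes, 15 rose and 2 fell (median 0.39). The fibrillar collagens Col1a1, Col1a2, Col3a1 and Col5a2 rose by 1.27, 1.08, 0.93 and 1.08, and Col8a1 had the largest difference (1.54). Col4a3 (-0.28) and Col4a4 (-0.27), basement membrane chains best known from kidney, fell. Of 29 matrix proteases and inhibitors, 22 rose and 2 fell (median 0.52). Mmp13, a collagenase, read 4.51, 4.50 and 5.04 in F66 and 6.82, 6.86 and 7.17 in F66;Dysf-/- (2.27, SE 0.143, adjusted p 1.07e-08), and Timp1, an inhibitor of matrix metalloproteinases, 6.32, 6.26 and 6.12 in F66 and 8.55, 8.24 and 8.41 in F66;Dysf-/- (2.16, SE 0.146, adjusted p 2.26e-08). Neither gene overlapped between groups. All F66 values of Mmp13 lay below the array medians, and raised to them they gave a difference of 1.62. Of the few matrix decreases, those among proteases numbered 0 after centring and 1 without the third F66;Dysf-/- array, and those among glycoproteins 1 without the second or the third F66 array or the first F66;Dysf-/- array. Adam8 rose by 2.45 and the membrane protease Mmp14 by 1.19.

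Markers of the cells that make matrix did not move as 1 block. Of 18 markers of fibro-adipogenic progenitors and fibroblasts, 7 rose and 5 fell (median 0.13), and the list mean was 7.12 to 7.22 in F66 and 7.31 to 7.40 in F66;Dysf-/-. Pdgfra, the marker by which these progenitors are sorted, did not pass (-0.08, adjusted p 0.558). Acta2, smooth muscle actin (1.16), tenomodulin (Tnmd, 1.08) and Fap (0.69) rose, and Dpp4 (-0.74) fell. Of 15 adipocyte markers, 3 rose and 3 fell, with Pparg at 0.74 and the lipid droplet protein Plin4 at -0.92. Plin1 did not pass (-0.20, adjusted p 0.115). Of 22 endothelial and pericyte markers, 5 rose and 7 fell, with Kdr at 0.75 and Flt1, its sister receptor for VEGF, at -0.53. Of 12 Schwann cell markers, 5 rose and 2 fell. Leaving out 1 array gave 3 to 4 endothelial, 2 to 4 Schwann cell and 3 to 4 lower fibroblast markers in place of 5 each. The lower adipocyte markers numbered 5 without the first F66 array. After quantile normalization 3 endothelial markers were higher. The list means spanned 7.38 to 7.60 and 7.37 to 7.42 for adipocytes, 7.87 to 7.94 and 7.82 to 7.91 for endothelium, and 6.41 to 6.52 and 6.51 to 6.55 for Schwann cells, F66 first in each pair.

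**Figure D2:**
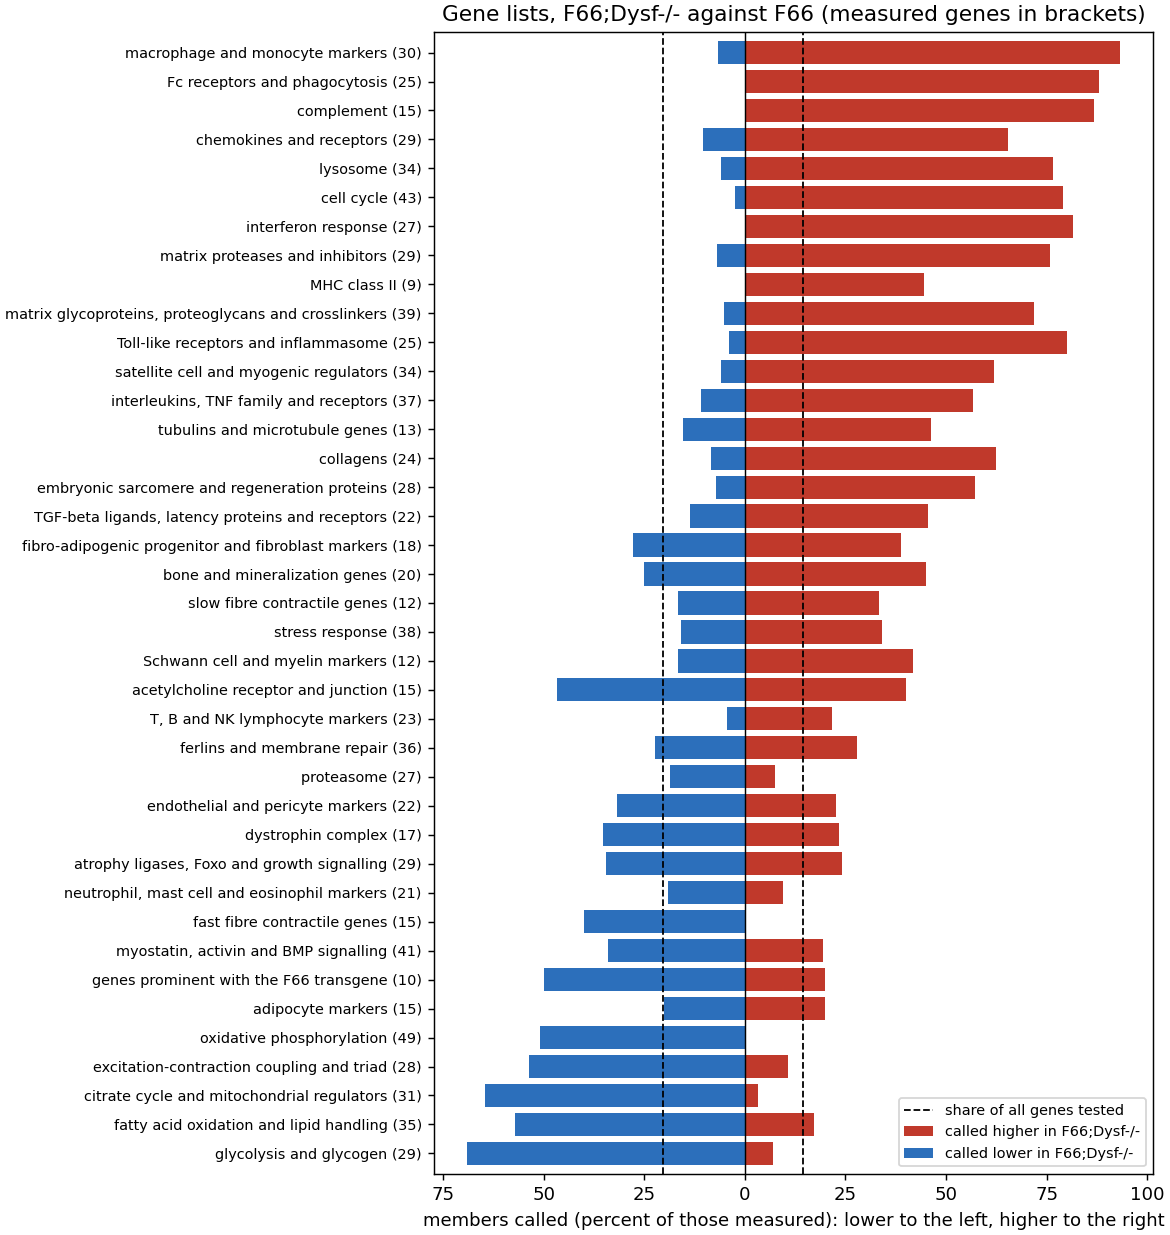
Share of the measured members of each of 39 gene lists called higher (right, red) or lower (left, blue) in F66;Dysf-/- than in F66, lists ordered by median log2 difference, with the number measured in brackets. The dashed lines are the shares over all genes tested, 14.5% higher and 20.3% lower; macrophage markers lie at 93.3% higher and glycolysis and glycogen at 69% lower.

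Many genes of muscle regeneration rose. Of 34 satellite cell genes and myogenic regulators, 21 rose and 2 fell (median 0.48), with 1 to 3 lower when any 1 array was left out. Mymk, myomaker, a membrane protein that fuses myoblasts, read 6.25, 6.77 and 6.57 in F66 and 9.69, 9.59 and 9.74 in F66;Dysf-/-, 8.81-fold higher (3.14, SE 0.18, adjusted p 3.96e-09). Myog, myogenin, the transcription factor of differentiating myoblasts, read 7.20, 7.31 and 7.57 in F66 and 9.13, 9.05 and 9.16 in F66;Dysf-/- (3.37-fold, 1.75, SE 0.125, adjusted p 3.94e-08). The 3 arrays of F66;Dysf-/- stood above all F66 arrays for both. Pax7, the marker of satellite cells, read 7.85, 7.98 and 7.44 in F66 and 8.55, 8.46 and 8.47 in F66;Dysf-/- (0.74, SE 0.255, adjusted p 0.0351). That call was lost when any 1 array other than the second F66 array was left out, at adjusted p values of 0.0564 and 0.138 without the first or the third F66 array and of 0.0923, 0.0684 and 0.0708 without the first, the second or the third F66;Dysf-/- array. Myf5, another early regulator, rose (0.70), and Pax3 did not pass (-0.09, adjusted p 0.509). Hgf, hepatocyte growth factor, rose by 1.61, Ncam1 by 1.54 and Mymx, the partner of myomaker, by 1.01. Of 28 embryonic sarcomere and regeneration genes, 16 rose and 2 fell (median 0.32), but after quantile normalization 14 rose and 7 fell. Tnnt2, the cardiac and embryonic troponin T, read 6.87, 6.86 and 6.86 in F66 and 8.75, 8.62 and 8.81 in F66;Dysf-/- (3.63-fold, 1.86, SE 0.067, adjusted p 9.81e-11), with almost no spread in F66. Runx1, a transcription factor raised in denervated muscle, rose by 1.89, Igf2 by 1.73, Ankrd1 by 1.29 and the imprinted RNA H19 by 0.84. Of the acetylcholine receptor subunits, 4 rose and 1 fell. Chrng, the γ subunit of fetal muscle, read 6.45, 6.33 and 6.35 in F66 and 8.11, 7.89 and 8.08 in F66;Dysf-/- (1.65, SE 0.112, adjusted p 2.43e-08). Chrna1 (1.82), Chrnd (1.32) and Chrnb1 (0.90), shared by the fetal and adult receptors, rose, whereas Chrne, the ε subunit of the adult receptor, read 9.80, 10.00 and 9.55 in F66 and 8.82, 8.93 and 9.06 in F66;Dysf-/- and fell (-0.85, SE 0.114, adjusted p 3.08e-05). Musk (-0.55) and Dok7 (-0.67), which gather receptors at the junction, fell too. Over the list of 15 receptor and junction genes, 6 rose and 7 fell (median 0.02).

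Myogenin and its relatives bind E-boxes, sites of the form CANNTG. The promoters of Myog and Chrng, the regulator and a gene known to be driven by myogenic factors, are shown with every CANNTG in capitals.
Myog, chr1:134289754-134290003, plus strand: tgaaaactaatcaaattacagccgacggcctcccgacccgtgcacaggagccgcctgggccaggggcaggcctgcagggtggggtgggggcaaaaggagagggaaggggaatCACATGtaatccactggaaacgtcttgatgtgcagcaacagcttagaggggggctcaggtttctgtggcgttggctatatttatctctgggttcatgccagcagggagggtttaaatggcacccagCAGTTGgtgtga
Chrng, chr1:87205561-87205810, plus strand: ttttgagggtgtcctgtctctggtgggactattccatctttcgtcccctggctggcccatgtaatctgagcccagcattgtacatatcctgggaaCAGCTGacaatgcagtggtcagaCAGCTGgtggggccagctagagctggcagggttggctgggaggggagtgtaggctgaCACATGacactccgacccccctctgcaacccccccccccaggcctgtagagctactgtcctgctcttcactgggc
Myog had 2 such sites and Chrng 3, on a motif that reads the same on both strands. It was in 66.2% of all promoters, 50% of those of the satellite cell and myogenic list (12 of 24) and 60.4% of those of genes called higher. The motif is common. The macrophage list held it in 23 of 25 promoters (92%), a larger share than the myogenic list. The MEF2 site, searched as CTA, 4 bases of any kind and TAG, was in 1 of 24 promoters of the myogenic list (4.17%) and in 3.2% of all promoters.

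Cell division genes rose in number. Of 43 cell cycle genes, 34 rose and 1 fell (median 0.56). Mki67 (Ki-67) read 6.64, 6.37 and 6.46 in F66 and 8.32, 8.14 and 8.11 in F66;Dysf-/- (3.25-fold, 1.70, SE 0.14, adjusted p 1.93e-07), with no overlap. The S phase and mitosis genes Top2a, Ccna2, Bub1 and Plk1 rose by 1.12, 1.01, 1.04 and 0.97, and Cdk6, a kinase of the G1 phase, rose by 1.05. The Bub1 rise was gone (-0.02) once values below the array medians were raised to them, with no test. Ccne2, cyclin E2, fell (-0.35), and lost the call without the third F66 array (adjusted p 0.0562). Of 13 tubulins and microtubule genes, 6 rose and 2 fell (median 0.42). Stathmin (Stmn1, 1.82) and the β tubulins Tubb6 (1.14) and Tubb5 (1.13) rose, and the α tubulins Tuba8 (-0.74) and Tuba4a (-0.41) fell.

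The mature contractile apparatus changed by smaller amounts. None of 15 fast fibre genes rose and 6 fell. Mylk4, a myosin light chain kinase, had the largest decrease on that list, at 12.38, 12.37 and 12.28 in F66 and 10.87, 11.17 and 11.12 in F66;Dysf-/- (-1.29, SE 0.114, adjusted p 4.15e-07), followed by Mylk2 (-0.54). Of the other 4 that fell, Actn3, the actinin of fast fibres, had the largest difference (-0.25). The light chain Mylpf did not pass (-0.27, adjusted p 0.0662). Centring on array medians left 3 of the decreases and the further quantile normalization gave 9. Of 12 slow fibre genes, 4 rose, Tpm3 (0.93), Casq2 (0.89), Atp2a2 (0.78) and Tnni1 (0.65), and 2 fell, Myl3 (-0.72) and Myh7b (-0.22). The slow fibre decreases numbered 4 after quantile normalization or without the first F66 array. In the dystrophin complex, 4 of 17 rose and 6 fell. Nos1, neuronal nitric oxide synthase, which is anchored to that complex, read 11.28, 10.98 and 11.03 in F66 and 9.33, 9.43 and 9.64 in F66;Dysf-/- and was 3.09-fold lower (-1.63, SE 0.165, adjusted p 1.81e-06). Dystrophin itself (Dmd, -0.52, SE 0.097, adjusted p 0.000607), α-sarcoglycan (Sgca, -0.47) and dystrobrevin (Dtna, -0.48) fell, while laminin β1 (Lamb1, 0.53) and integrin α7 (Itga7, 0.67) rose. The mean of all Dmd rows moved by only -0.07 (adjusted p 0.814), so the Dmd decrease rests on the row used. Of 28 genes for excitation-contraction coupling, 3 rose and 15 fell (median -0.20), 10 after centring, 18 after quantile normalization and 9 without the first F66;Dysf-/- array. The potassium channel genes Kcnj12 (-0.91) and Kcnj11 (-0.53) and Cacna1s (-0.23), the voltage sensor, fell. Mtm1, myotubularin, rose (0.71).

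Metabolic genes held the longest run of decreases. Of 29 genes for glycolysis and glycogen, 20 fell and 2 rose (median -0.34). Ppp1r3c, which targets a phosphatase to glycogen, read 11.08, 11.08 and 11.07 in F66 and 8.77, 9.41 and 9.28 in F66;Dysf-/- and was 3.8-fold lower (-1.92, SE 0.236, adjusted p 1.24e-05). Gbe1, the glycogen branching enzyme (-1.01), Hk2, hexokinase 2 (-0.91), and Slc2a4, the insulin-responsive glucose transporter GLUT4 (-0.81), fell. Pfkfb3, which makes an activator of glycolysis, was 1 of the 2 that rose (1.07, adjusted p 0.000813). Of 49 genes for oxidative phosphorylation, 25 fell and none rose, with a median of -0.20. The sizes were small, with Ndufs4 (-0.59), Ndufa4 (-0.58) and Ndufs3 (-0.51), all subunits of complex I or IV, among the largest, and the count was 15 after centring and 35 after quantile normalization, with none called higher under either. Of 31 citrate cycle and mitochondrial genes, 20 fell and 1 rose (median -0.25). Ppara, the fatty acid receptor that drives oxidation genes, read 8.74, 8.62 and 8.90 in F66 and 7.0, 7.62 and 7.64 in F66;Dysf-/- (2.53-fold lower, -1.34, SE 0.171, adjusted p 1.93e-05). The coactivator Ppargc1a fell (-0.73), its relative Ppargc1b rose (0.55), and mitochondrial creatine kinase (Ckmt2) fell (-0.65). Of 35 genes for fatty acids and lipids, 20 fell and 6 rose (median -0.29). Ces1d, a triglyceride hydrolase, read 7.64, 7.48 and 7.57 in F66 and 5.67, 5.60 and 5.78 in F66;Dysf-/- (-1.88, SE 0.161, adjusted p 2.94e-07), and Acacb (-0.82), Pnpla2 (-0.57) and Slc25a20 (-0.58) fell. Those that rose included Apoe (1.94) and the cholesterol exporters Abcg1 (1.05) and Abca1 (0.98), which macrophages also express. The list mean of the macrophage markers differed between these groups as given above, and its part in the metabolic decreases was not tested.

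Mstn, Gdf11, Inhba and Bmp4, ligand genes of the TGF-β family, fell in F66;Dysf-/- muscle, on a list that moved both ways. Of 41 genes for myostatin, activin and BMP signalling, 14 fell (34.1%), 8 rose and 19 did not pass (median -0.14), with 11 lower after centring and 5 to 7 higher when any 1 array was left out. Mstn read 11.22, 11.12 and 11.26 in F66 and 9.58, 9.71 and 9.73 in F66;Dysf-/- and was 2.88-fold lower (-1.53, SE 0.0999, adjusted p 1.62e-08). The groups were more than 1 unit apart, and the wt and Dysf-/- means were 10.72 and 10.61, so F66;Dysf-/- held the lowest Mstn level of the 4 uninjected groups. Gdf11, the closest relative of myostatin, read 9.63, 9.74 and 9.43 in F66 and 8.96, 8.85 and 9.09 in F66;Dysf-/- (-0.63, SE 0.0989, adjusted p 0.000128), with means of 8.25 in wt and 8.19 in Dysf-/-. The activin βA subunit Inhba (-0.79, SE 0.209, adjusted p 0.00861) and the inhibin α subunit Inha (-0.81, SE 0.133, adjusted p 0.000205) fell. Tll2, a protease that activates latent myostatin, read 6.61, 6.79 and 6.53 in F66 and 5.38, 5.46 and 5.42 in F66;Dysf-/- (-1.22, SE 0.0817, adjusted p 2.09e-08), and Bmp4 9.11, 9.17 and 9.25 in F66 and 8.21, 7.99 and 8.31 in F66;Dysf-/- (-1.01, SE 0.108, adjusted p 3.24e-06). The mean levels of Tll2 and Bmp4 in F66;Dysf-/- (5.42 and 8.17) were near those of wt (5.65 and 8.15), while F66 stood at 6.64 and 9.18. Tll2 read not far above the array medians in F66;Dysf-/- and wt, so the nearness of its levels is not exact. Bmp1, the relative of Tll2 that also cleaves procollagen, rose (0.75). The receptor Bmpr2 (-0.52), Smad9 (-0.72) and the BMP target Id1 (-0.57) fell. For Gdf11 and Smad9, the study's own fold changes over wt leave a wider gap between F66 and F66;Dysf-/- than the values here. The reason was not tested, and the sizes of the Gdf11 and Smad9 differences are not settled. Of 22 genes of the TGF-β branch, 10 rose and 3 fell (median 0.21), with 1 lower after centring and 1 to 2 when any 1 array was left out. Tgfb1 (0.81) and Tgfb3 (0.57) rose, and Nrros, which holds latent TGF-β1 on myeloid cells, rose most (1.17).

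Of 10 genes chosen because they stand out with the transgene in these arrays, 5 fell and 2 rose (median -0.15), a list that is no independent evidence of its direction. Npr3, the clearance receptor of natriuretic peptides, read 10.04, 10.18 and 10.00 in F66 and 7.93, 8.11 and 8.28 in F66;Dysf-/- and was 3.9-fold lower (-1.97, SE 0.0969, adjusted p 9.98e-10), at the wt mean of 8.05. Peg10, an imprinted gene, read 11.56, 11.55 and 11.16 in F66 and 10.21, 9.96 and 9.99 in F66;Dysf-/- (-1.37, SE 0.142, adjusted p 2.32e-06) and stayed above the wt mean of 7.31. Among growth and atrophy genes, 7 of 29 rose and 10 fell. Igf1 read 7.33, 7.26 and 7.30 in F66 and 8.64, 8.56 and 8.55 in F66;Dysf-/- (1.29, SE 0.148, adjusted p 6.8e-06), and Igf2 rose as given above. Igfbp6, a binding protein of IGF2, fell (-1.18, SE 0.124, adjusted p 2.72e-06), as did Pik3r1 (-1.0), Foxo1 (-0.76) and the ligase gene Fbxo40 (-0.59). Fbxo32 (atrogin-1) did not pass (-0.37, adjusted p 0.0992).

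**Figure D3:**
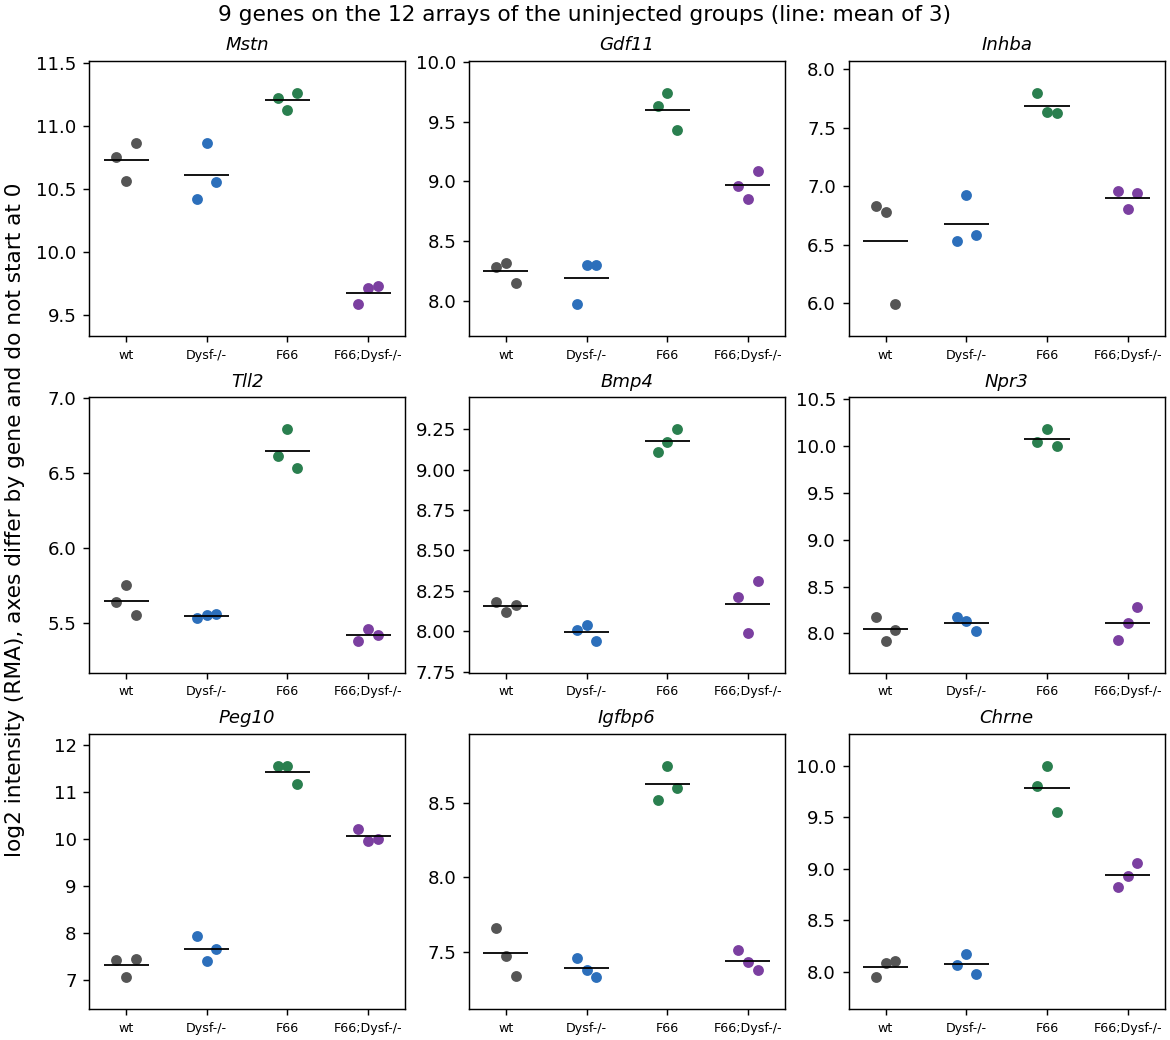
Log2 intensity (RMA) of 9 genes on the 3 arrays of each uninjected group (points; line at the mean). Each gene is highest in F66 and lower in F66;Dysf-/-. There Npr3, Tll2, Bmp4 and Igfbp6 are near wt, Mstn is below wt, and Gdf11, Inhba, Peg10 and Chrne lie between. The 9 genes were picked from lists that moved both ways, so their common pattern is not a result about those lists. Tll2 reads not far above the array medians in wt and F66;Dysf-/-.

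The largest decreases came from several functions, and Fmo2 and Odf3l2 fell by more than Dysf. Fmo2, a flavin monooxygenase, read 9.53, 9.30 and 9.11 in F66 and 6.87, 7.16 and 6.87 in F66;Dysf-/-, 5.09-fold lower (-2.35, SE 0.182, adjusted p 1.04e-07). Ppl, periplakin, a cytoskeletal linker, read 8.65, 8.36 and 8.33 in F66 and 6.33, 6.41 and 6.49 in F66;Dysf-/- (-2.03, SE 0.0982, adjusted p 9.17e-10). Odf3l2 (-2.09, SE 0.198, adjusted p 8.85e-07) was at 8.19 in F66 on average and 6.10 in F66;Dysf-/-. All 3 genes had separate groups, which was a condition of being named among the largest decreases. For 18 of the 20 largest decreases every F66;Dysf-/- array also lay below every wt array, and for 14 of the 20 every F66 array lay above every wt array. These 20, Dysf among them, were picked for low F66;Dysf-/- values beside F66, which favours both counts. The shares of all genes that lay so beside wt were not counted, so neither count is a result about these genes. Ddit4, an inhibitor of mTORC1, fell (-1.67, SE 0.412, adjusted p 0.00536), with 1 F66;Dysf-/- array at 8.42 and the others at 7.86 and 7.59. Ostn, osteocrin, a muscle peptide that binds the receptor Npr3, fell by 1.65 on the log2 scale (7.0, 7.08 and 7.24 in F66 and 5.25, 5.63 and 5.49 in F66;Dysf-/-). Opn1mw, an opsin of cone cells, read 7.26, 7.07 and 6.86 in F66 and 5.09, 5.12 and 5.26 in F66;Dysf-/- (-1.91), and its F66;Dysf-/- values lay near the wt mean of 5.17. Further decreases named by the rule were Cdh4 (-1.89), Atp13a5 (-1.88), Kcnf1 (-1.74), Aldh1a1 (-1.72), Mettl21e (-1.66), Inmt (-1.59), Car14 (-1.58) and Angptl7 (-1.52). Increases not yet given were C1qtnf3 (3.19), Sirpb1c (3.57), Cd84 (2.72), Serpina3n (2.63), Cd300ld (2.60), Cd180 (2.59), Cd300lb (2.56), Apobec1 (2.54) and Gpr65 (2.45). Sirpb1c belongs to a family of near-identical genes, and its signal may be shared with them.

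Stress and protein turnover genes moved less. Of 38 stress genes, 13 rose and 6 fell (median 0.07), with 10 lower after quantile normalization and 9 without the first F66 array. The endoplasmic reticulum chaperones Pdia4 (0.81), Hsp90b1 (0.71), Calr (0.64) and Hspa5 (0.55) rose, as did haem oxygenase (Hmox1, 0.78). Nqo1, a quinone reductase, fell (-1.02, SE 0.114, adjusted p 4.78e-06), but the mean of its rows did not pass (-0.35, adjusted p 0.0827). Atf4 (-0.17, adjusted p 0.132) and Ddit3 (0.20, adjusted p 0.269) did not pass. Of 27 proteasome genes, 2 rose, the immunoproteasome subunits Psmb8 (0.50) and Psmb10 (0.24), and 5 fell, among them Psmc4 (-0.23). The decreases numbered 1 after centring, 10 after quantile normalization and 2 to 5 with 1 array left out. Of 20 bone and mineralization genes, 9 rose, among them matrix Gla protein (Mgp, 1.45) and Dcstamp (0.92), which fuses osteoclast precursors, and 5 fell, among them Dmp1 (-0.60) and Alpl (-0.47).

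The same genotype difference was measured without the transgene on other arrays, with 1 estimate of the spread over all arrays. Dysf-/- against wt called 99 genes (0.489%), 61 higher (0.301%) and 38 lower (0.188%). With the arrays of these 2 groups alone the count was 29, of which 24 were among the 99, and with Student's t-test after adjustment it was 0 (1532 at an unadjusted p below 0.05), so the shares that follow rest on the shared spread. Leaving out 1 array of the 6 gave between 31 and 86 genes, with 37 without the second wt array, 31 without the third, 41 without the first Dysf-/- array and 47 without the third. Of the 61, 56 (91.8%) were also called higher in F66;Dysf-/- against F66, where they made up 1.91% of the 2930 called, and 31 of the 38 lower genes (81.6%) were also called lower there, 0.755% of 4104. Among the 87 shared genes, 77 had the larger difference in F66, and the median size was 1.52 with the transgene and 0.57 without. The injected mice, with 387 genes called (1.91%, of which 269 higher, 1.33%, and 118 lower, 0.582%), gave 243 of 269 (90.3%) and 82 of 118 (69.5%) in common with F66, which were 8.29% and 2% of the F66 calls. Another 5 of the 269 and 5 of the 118 were called in the opposite direction in F66. With their own arrays alone the 387 became 65, and 0 with the adjusted t-test (2017 unadjusted). Leaving out 1 array took the 387 to between 169 and 490, with 183 and 204 without the first or the third injected wt array and 169 and 184 without the second or the third injected Dysf-/- array.

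The difference between the differences was then tested. Dysferlin loss had a different effect in F66 than in uninjected mice without the transgene for 3336 genes (16.5%), 1730 in the positive direction (8.54%) and 1606 in the negative (7.93%), and a different effect than in injected mice for 3085 genes (15.2%), 1537 positive (7.59%) and 1548 negative (7.64%). Against injected mice the positive share of 49.8% became 65.4% after centring on array medians. Of the 30 macrophage markers, 26 had a larger positive difference in F66 than in uninjected mice, of 43 cell cycle genes 30, of 34 myogenic genes 18, of 27 interferon genes 19 and of 39 matrix glycoproteins 15. Among genes with a negative one were 13 of 29 for glycolysis and glycogen and 15 of 35 for lipids.

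Sirpb1c had a difference of differences of 3.37 (adjusted p 0.000168), from 3.57 in F66 and 0.21 without the transgene, and Mmp12 one of 3.17 (adjusted p 2.49e-07, 3.79 beside 0.61). Both genes lay below the array medians in F66 and wt, and with such values raised to the medians the differences of differences were 1.42 for Sirpb1c and 2.97 for Mmp12. Il7r stood at 3.08 (3.52 beside 0.44) and Postn at 2.44 (3.49 beside 1.05). For Mpeg1, called in both comparisons, the values were 3.66 and 1.61, with a difference of 2.05 (adjusted p 1.52e-05). The remaining genes among the 10 largest were C1qtnf3 (2.39), Aoah (2.35), which inactivates bacterial lipopolysaccharide, Cd72 (2.27), Adam8 (2.19), Cd300ld (2.19) and Cd84 (2.16). In the negative direction, Mstn (-1.41, adjusted p 8.65e-06), Npr3 (-2.02, adjusted p 4.76e-07) and Nos1 (-1.40, adjusted p 0.000702) differed between backgrounds. Dysf itself fell by slightly more in F66 (-2.03) than without the transgene (-1.71, difference -0.32, adjusted p 0.0345), with mean levels of 8.85 in F66 and 8.55 in wt. Inmt, a methyltransferase, fell in both comparisons (-1.59 and -1.55), with a difference of -0.05 (SE 0.274, adjusted p 0.939).

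**Figure D4:**
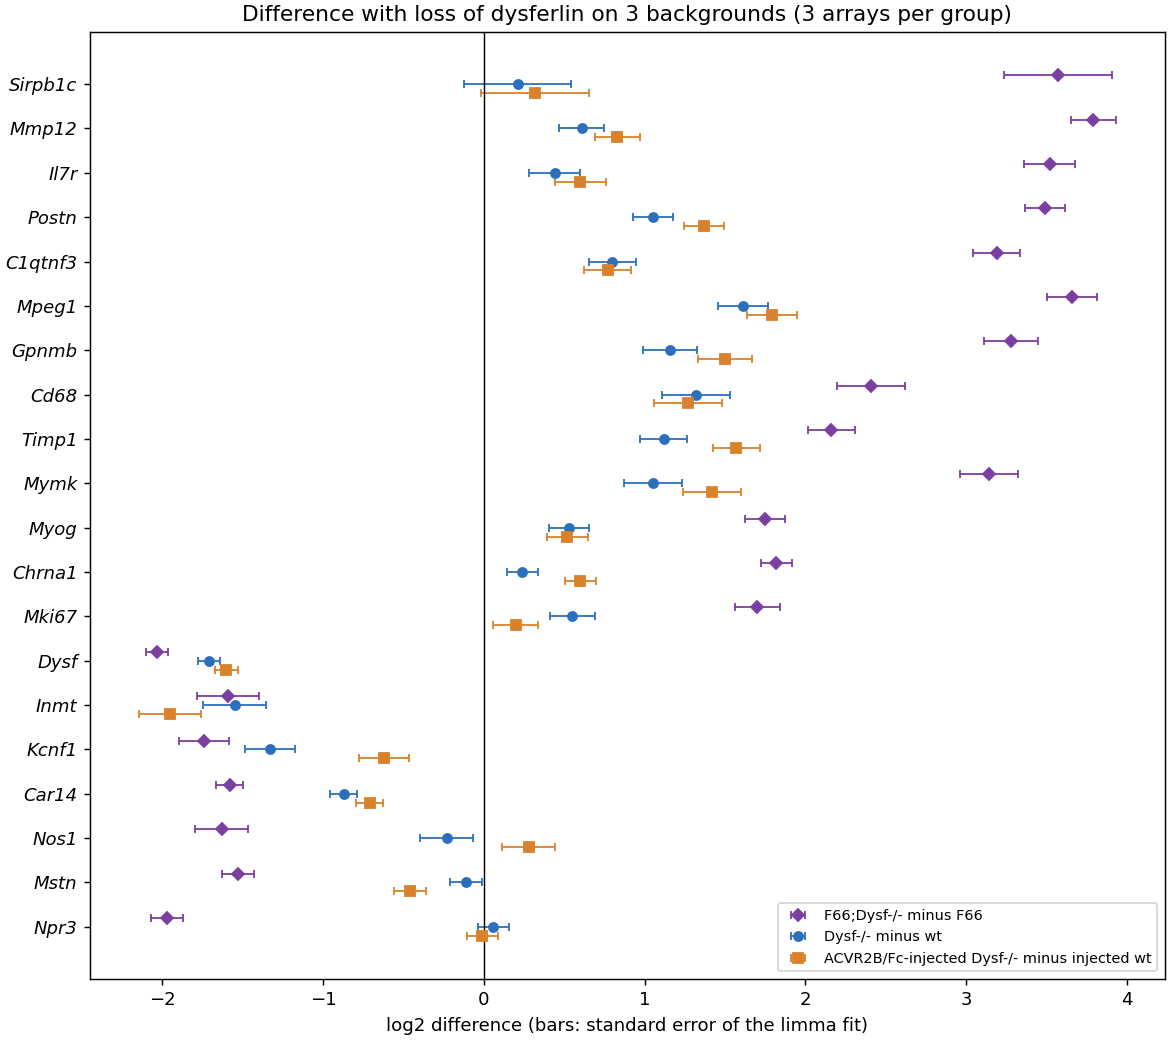
Log2 difference with loss of dysferlin for 20 genes in F66 mice (diamonds), in uninjected mice without the transgene (circles) and in ACVR2B/Fc-injected mice (squares); bars are the standard error of the limma fit, 3 arrays per group. Postn lies at 3.49 in F66 and 1.05 in uninjected mice, whereas Inmt lies at -1.59 and -1.55.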

How the data were processed

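RNA of quadriceps from 18 male mice, 3 in each of 6 groups, was hybridised to mouse exon arrays. The values are log2 intensities that the authors background corrected, normalized and summarised by RMA in Partek on mm9 before they were deposited; versions are not given in the sources used here. The mice and tissue are those of the labels, and groups follow them. Of 115830 rows, 25539 have 1 gene symbol in the platform annotation, 2300 have several and 87991 are not listed there. For each of 20259 genes the brightest row, by its mean across all 18 arrays, was used, and no filter on low values was applied. Raising values below an array's median to that median, for Mmp12, Mmp13, Sirpb1c and the other genes of low level, was chosen after the data were seen and carries no test.

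Group means were fitted with limma 3.58.1 (R 4.3.3) over the 18 arrays, with 12 residual degrees of freedom, and p-values were adjusted by the Benjamini-Hochberg method over 20259 genes, with a call at an adjusted p below 0.05. P-values set each difference against a spread within groups that was estimated from all 18 arrays, and the number of arrays limits the precision. In simulated data on 20259 genes for F66;Dysf-/- against F66, 100 genes were changed by 1 and 100 by 0.5 (log2). Of these, 93% and 70% were recovered, and 10 of 20059 unchanged genes were called. Far fewer genes were changed there than were called in the data (34.7%), so the rates do not give the recovery in this comparison. Figures were drawn with matplotlib 3.10.9 under Python 3.11.15.

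The comparison, the members and the lists were chosen with earlier results of these data known. Genes named were the 20 largest increases and the 20 largest decreases that were called and did not overlap, without predicted genes and clones (144 higher and 386 lower such genes among 2889 and 3978), the first 3 and the 6 members with the smallest p of each of 39 lists, the 10 largest differences between backgrounds, genes that the study's results name, and the 5 measured genes on each side of Dysf. Outside this rule, Ankrd1, Anxa6, Anxa7, Anxa8, Atp6v0d2, Ccl11, Ccne2, Cd163, Chrne, Col4a3, Col4a4, Foxo1, H19, Id1, Lyve1, Musk, Mymx, Npc1, Pik3r1, Ppargc1a, Ppargc1b, Spi1, Stmn1, Tfeb, Tgm2, Tnf and Trem2 were chosen after their values were seen, as was the E-box motif. The lists hold 970 measured genes, 36 of them on more than 1 list, and 116 listed genes had no row of a single symbol.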

Additional observations from a re-analysis of the deposited data

Results flagged for a closer look

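The effect of dysferlin loss differed between F66 mice and uninjected mice without the transgene for 3336 genes, and between F66 mice and ACVR2B/Fc-injected mice for 3085 genes, each by limma's test of the difference itself. The 10 largest such differences from uninjected mice were all positive, that is, the gene rose by more in F66. They were Sirpb1c (3.37 on the log2 scale), Mmp12 (3.17), Il7r (3.08), Postn (2.44), C1qtnf3 (2.39), Aoah (2.35), Cd72 (2.27), Adam8 (2.19), Cd300ld (2.19) and Cd84 (2.16). Sirpb1c and Mmp12 lay below the array medians on all F66 and wt arrays, and Il7r on the second and the third F66 arrays. The sizes and places of these genes in this order are not exact.

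Rows outside the genes compared also carried a difference between F66;Dysf-/- and F66, when all 115830 rows were tested together. Of 2300 rows with several gene symbols, 350 were called (15.2%), 216 higher and 134 lower. Of 87991 rows that the annotation does not list, 5242 were called (5.96%), 2825 higher and 2417 lower.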

How the results depend on the processing

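For F66;Dysf-/- against F66, 7034 genes were called, and between 6046 and 7359 with the compared arrays alone, a replicate block, the mean of a gene's rows, another quantile normalization, centring or a trended prior, 6211 without genes of low level, 5742 with Student's t-test after Benjamini-Hochberg adjustment, 10091 over all rows and 5376 to 6371 with 1 array left out. At the methods' t-test threshold, 422 genes passed (325 higher, 97 lower). Of the 7034, 6265 were called in the same direction with the compared arrays alone, 5656 after centring and 6071 after quantile normalization.

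The count for Dysf-/- against wt (99) was 29 with the compared arrays alone, 266 over all rows, 19 at the methods' threshold and 0 with the adjusted t-test (1532 at an unadjusted p below 0.05), and 31 to 86 with 1 array left out. For injected mice (387) it was 65, 277, 25 and 0 (2017 unadjusted) under the same settings, and 169 to 490 with 1 array left out. The difference between F66 and uninjected mice (3336) gave 2511 to 3168 with 1 array left out, and that between F66 and injected mice (3085) gave 2194 to 2891, and 1719 over all rows. The causes of these changes in count were not tested.

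The replicate numbers of the labels did not pair the arrays of the uninjected groups. Deviations of same-numbered arrays correlated at 0.06, 0 and 0.02 between F66 and F66;Dysf-/- and at 0.04, 0.04 and -0.05 between wt and Dysf-/-. In injected mice they correlated at 0.19, 0.21 and 0. There the first wt array and the second Dysf-/- array gave -0.17, and the second wt array and the first Dysf-/- array -0.22. The reason was not tested. The replicate block gave 7359, 103, 390, 3537 and 3319 genes for the 5 comparisons in the order above.

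Of the 224 genes named with a difference in F66 that were called, 219 kept their call under every alternative in which they were tested. None changed sign in those tests. The setting without genes of low level dropped some of the 224, Bub1 among them. With values below the array medians raised to them, which carries no test, Bub1 went from 1.04 to -0.02. Lost calls are given beside the genes, except for Ccne2 (adjusted p 0.0587) and Psmc4 (0.0529) under the adjusted t-test.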
